A study of Mus musculus with 7 samples.

Results

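Liver mRNA of mice collected in the dark, when food was given, was set against liver mRNA of mice collected in the light, when food was withheld. The dark arrays were those of zeitgeber time (ZT) 14, ZT18 and ZT22, and the light arrays those of ZT02, ZT06, ZT10 and ZT26, where ZT counts the hours since lights on. These are all 7 arrays of the series, and ZT26 is the clock hour of ZT02 on the following day. Every group consisted of male C57/BL6 mice, 9 to 11 weeks old when housing began according to the labels, kept for 2 weeks under 12 h of light and 12 h of darkness and then for 7 days with food from ZT12 to ZT24 only. For each array 5 livers had contributed 500 ng of RNA apiece to a pool, which was hybridised to an Affymetrix Mouse Gene 1.0 ST array, so that each value below is 1 pool at 1 time. No time has a replicate array, and the 3 dark arrays and 4 light arrays are different hours of a phase rather than repeats of a condition. Light, access to food and time of day cannot be told apart in this design.

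Of 35556 probe sets, 21789 carried a single gene symbol, and the 12076 of these whose mean signal exceeded 85 natural units were compared (10966 genes). The values are log2 signals, and a difference is the mean of the dark arrays minus the mean of the light arrays on that scale, where 1 is a 2-fold change. The array medians over these probe sets lay between 8.31 and 8.40, and any pair of arrays correlated at 0.976 to 0.994 across the tested probe sets. The hepatocyte marker Alb, serum albumin, had log2 signals of 14.04, 14.02 and 14.02 at ZT14, ZT18 and ZT22, against 14.08, 14.01, 13.98 and 14.02 at ZT02, ZT06, ZT10 and ZT26.

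In the hours after a meal, insulin directs the liver to store glucose as glycogen and to make fatty acids, and it keeps FoxO transcription factors out of the nucleus. During fasting FoxO factors return to the nucleus and activate genes such as Igfbp1 and Irs2, while stored fat is burned and autophagy is raised. The circadian clock runs through both phases: CLOCK and BMAL1 activate the Per, Cry and Nr1d genes, PER and CRY proteins repress that activation, and REV-ERB proteins (Nr1d1, Nr1d2) repress Arntl, the gene for BMAL1, and Cry1.

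No probe set passed an adjusted p under 0.05 in limma's comparison of the dark with the light arrays (0% of 12076, Benjamini-Hochberg adjustment). The lowest adjusted p was 0.323, for Cyp2c55, a cytochrome P450 with a difference of -0.52, whereas 1357 probe sets (11.2%) had an unadjusted p under 0.05, 687 with the higher mean in the dark and 670 with the lower. Differences are therefore described by a plainer property, that all 3 dark arrays lay on one side of all 4 light arrays. This held for 1048 probe sets (8.68%), of which 511 (4.23%) lay higher in the dark and 537 (4.45%) lower. Of the genes, with 1 probe set each, 467 (4.26%) lay higher and 480 (4.38%) lower. An exact permutation test of a single probe set could reach a two-sided p of 0.0571 at the least with 3 against 4 arrays.

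In 77 probe sets (0.638%) the groups did not overlap and their means lay over 1.5-fold apart. Of these, 37 (0.306%; 33 genes) were higher in the dark and 40 (0.331%; 40 genes) lower. The adjusted p of these 77 in limma ranged from 0.403 to 0.459 and the unadjusted p of 75 of them was under 0.05. Just inside the limit of 1.5-fold lay Hspa4l, Rpp38 and Pinx1 at 0.59 to 0.60, and just outside it lay Zbed5, Mov10 and Iigp1 at -0.58 to -0.57. A further 84 probe sets differed by over 1.5-fold with overlapping groups, among them the clock gene Per2 (1.65) and the immediate early gene Egr1 (-1.68). Leaving out ZT10 gave 160 non-overlapping probe sets past 1.5-fold and leaving out ZT22 gave 175, while the count without any other single array was 67 to 106. Of the 77 probe sets, between 49 (without ZT14) and 76 (without ZT22 or without ZT26) still met both conditions.

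The same clock hour was sampled on consecutive days at ZT02 and ZT26, which gives the spread between pools. The median size of the difference between ZT26 and ZT02 was 0.0903 over the tested probe sets, and the median size of the difference between dark and light was 0.0698. The former is taken between single arrays and the latter between means of several arrays, in which noise is smaller. These medians are therefore not on a like scale, and do not show that dark and light differed less than pools do. The 77 probe sets were chosen for light arrays that all lay on one side of the dark ones, which by itself favours a small difference between ZT26 and ZT02, so that the next counts are a description only. The dark minus light difference exceeded the probe set's own difference between ZT26 and ZT02 in all 77, and the gap between the nearest dark and light arrays did so in 50. Nr4a1 had the largest difference between ZT26 and ZT02 of the 77 (-1.01, beside -1.21 between dark and light), and Pinx1 came nearest to having both alike (0.54, beside 0.60).

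**Figure D1:**
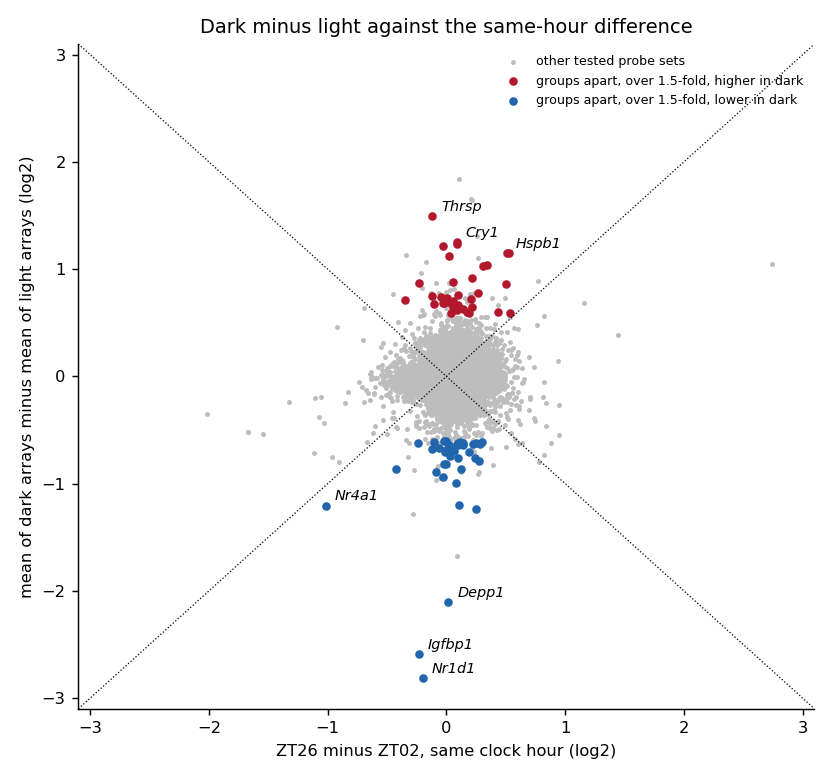
Each point is 1 of 12076 probe sets, with the difference between the ZT26 and ZT02 arrays (log2) on the horizontal axis and the difference between the dark and light means (log2) on the vertical axis. Coloured points are the 37 probe sets higher and the 40 lower in the dark whose groups did not overlap and lay over 1.5-fold apart, and all of these lie nearer to the vertical axis than the dotted diagonals, which their choice favours.

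After the clock gene Nr1d1, described with the other clock genes, the largest lower differences in the dark were those of Igfbp1 and Depp1. Igfbp1 encodes a secreted protein that binds insulin-like growth factors and is a classical marker of fasting. Its log2 signal was 6.87, 7.54 and 8.16 at ZT14, ZT18 and ZT22, against 10.91, 9.76, 9.12 and 10.68 at ZT02, ZT06, ZT10 and ZT26. The difference of -2.59 ± 0.49 (moderated SE, n = 3 dark and 4 light pools; adjusted p = 0.403 in limma) is 6.03-fold, and the gap of 0.97 between the nearest arrays was the widest of the 77 probe sets. Within each phase the signal was lowest at ZT14 in the dark and at ZT10 in the light. Depp1, a gene that FoxO factors activate, had 6.87, 8.16 and 9.07 at ZT14, ZT18 and ZT22, against 10.50, 10.19, 9.38 and 10.51 at ZT02, ZT06, ZT10 and ZT26. It differed by -2.11 ± 0.52, and its ZT22 array lay only 0.31 below its ZT10 array. Irs2, which couples the insulin receptor to its kinases, had 7.56, 7.68 and 8.11 in the dark arrays in order of time, against 9.06, 8.33, 8.55 and 8.63 in the light arrays. Its difference of -0.86 ± 0.20 ranked after those of several genes of the next paragraph. For all 3 genes the lowest array was ZT14, the first after food was given.

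The other leading genes with lower signals in the dark were of mixed function. Tcp11l2, whose function in liver is not well known, had 7.24, 7.18 and 8.44 in the dark arrays, against 8.79, 8.94, 8.67 and 8.89 in the light arrays. Without ZT22 it was the single probe set with an adjusted p under 0.05 (limma, adjusted p = 0.0203, difference -1.61, against -1.20 with all arrays). Clec2h, a C-type lectin-like receptor, was flat across the dark at 7.88, 8.07 and 7.92, against 8.53, 9.63, 9.86 and 8.78 in the light arrays. Nr4a1, an orphan nuclear receptor of the immediate early class, was flat in the dark as well, at 6.50, 6.30 and 6.38, against 8.23, 7.56, 7.38 and 7.22 in the light. Unlike those of Clec2h, these dark values lay near the minimum of 85 units. Whether so low a signal can show a change across the dark was not tested. The genes Fbxo21 (-0.99 ± 0.25) and Klhl24 (-0.94 ± 0.27), both adaptors of ubiquitin ligases, Slc8b1 (-0.89 ± 0.24), a mitochondrial sodium and calcium exchanger, and the protease gene Casp6 (-0.86 ± 0.25) had their lowest arrays at ZT18. Erbb3, a neuregulin receptor, differed by -0.82 ± 0.20 and was lowest at ZT14 with 9.67, against 10.89 to 11.08 over the light arrays.

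The higher group in the dark was led by Thrsp, a regulator of fatty acid synthesis that responds to thyroid hormone and carbohydrate. Its log2 signal was 12.40, 12.33 and 11.54 at ZT14, ZT18 and ZT22, against 10.41, 10.24, 11.45 and 10.28 at ZT02, ZT06, ZT10 and ZT26. The difference was 1.49 ± 0.35 (SE, n = 3 dark and 4 light pools; adjusted p = 0.403 in limma), or 2.82-fold, but the ZT22 and ZT10 arrays lay only 0.087 apart. Ppp1r3b, the subunit that brings protein phosphatase 1 to glycogen, had 10.54, 10.49 and 10.50 in the dark arrays, against 9.55, 9.20, 8.74 and 9.64 in the light arrays. It was the flattest leading gene across the dark, and its gap of 0.86 was the widest of the 37 probe sets that lay higher. Angptl8, a secreted protein that feeding is known to induce and that acts on lipoprotein lipase, had 11.69, 11.46 and 10.88 in the dark, against 10.29, 10.32, 9.64 and 10.27 in the light, a difference of 1.21 ± 0.24. Ppp1r3b and Angptl8 were both lowest at ZT10, the last array before food was given, and highest at ZT14.

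The remaining leading genes of the higher group were of mixed function. Hspb1, a small heat shock protein, had 9.65, 10.19 and 9.45 in the dark arrays, against 8.61, 8.71, 8.01 and 9.12 in the light arrays. A second probe set of Hspb1 gave the same difference of 1.15. Nat8f5, of a family of N-acetyltransferases, differed by 1.13 ± 0.26 with no dark array below 10.85 and no light array above 10.27. Pcp4l1 (1.04 ± 0.22), the pseudogene Serpina4-ps1 (1.03 ± 0.20), the tetraspanin Tspan4 (0.91 ± 0.21), Id3 (0.86 ± 0.25), an inhibitor of helix-loop-helix factors, and Gimap9 (0.78 ± 0.15), a GTPase best known from lymphocytes, followed. Tcim differed by 0.88 ± 0.31, and its lowest dark array lay only 0.0061 above its highest light array. Without ZT14 the difference of Tcim was 0.56. Beyond these, the higher group held Odc1 (2 probe sets, 0.75 and 0.72), the first enzyme of polyamine synthesis, G0s2 (0.75), an inhibitor of fat breakdown, Tsc22d3 (0.72), a glucocorticoid-induced protein, and Onecut1 (0.70), a hepatocyte transcription factor.

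**Figure D2:**
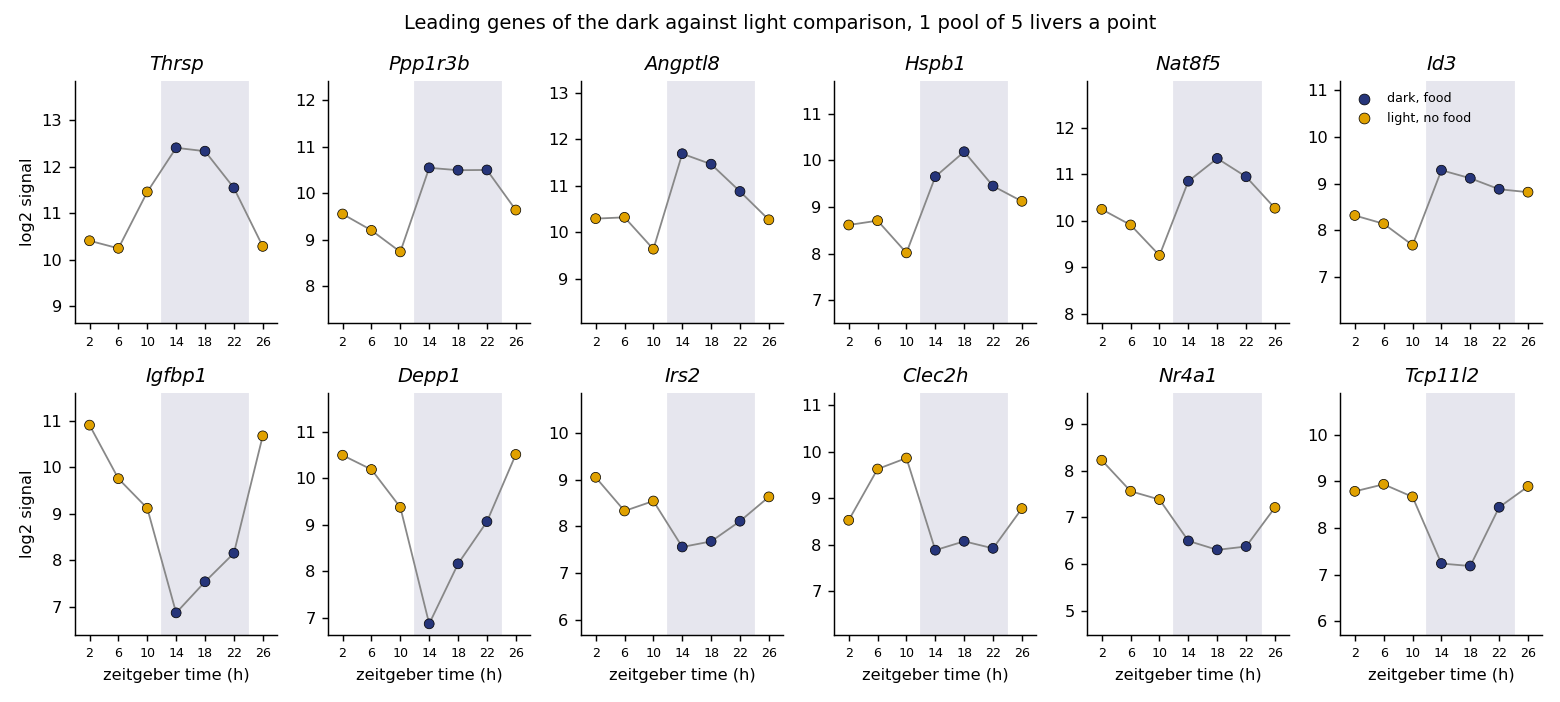
Log2 signal (vertical axis, the same span in each panel) against zeitgeber time in hours for 6 genes higher in the dark (upper row) and 6 lower (lower row). Each point is 1 pool of 5 livers, dark blue in the dark and yellow in the light, with the dark phase shaded; Ppp1r3b stays at 10.49 to 10.54 across the dark, while Igfbp1 is lowest at ZT14 with 6.87.

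The promoters of these genes are shown because FoxO factors, heat shock factor and the clock proteins bind known short motifs near gene starts. RefSeq promoters (GRCm38.p6; 250 bases before and 50 after a gene's start) were at hand for 25 of the 33 genes higher in the dark (29 promoters) and for 32 of the 40 lower (40 promoters). The sequences below run 5′ to 3′ on the strand of the gene, and capitals mark the motif matches. In the Igfbp1 promoter (chr11:7197537-7197836, plus strand) they mark the insulin response element CAAAACA, whose first base lies at position -108 from the start; this promoter was chosen after its values were seen.
Igfbp1: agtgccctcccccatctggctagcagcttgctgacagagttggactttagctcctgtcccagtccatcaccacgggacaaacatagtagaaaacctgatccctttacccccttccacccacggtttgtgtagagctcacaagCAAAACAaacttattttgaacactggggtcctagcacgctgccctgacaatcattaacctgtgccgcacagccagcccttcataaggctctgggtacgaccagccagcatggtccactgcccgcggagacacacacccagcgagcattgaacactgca
In the Cry1 promoter (chr10:85185005-85185304, minus strand) the capitals mark GTAAACA, a FoxO element, at position -95 and the E-box CACGTG, which CLOCK and BMAL1 bind, at -60.
Cry1: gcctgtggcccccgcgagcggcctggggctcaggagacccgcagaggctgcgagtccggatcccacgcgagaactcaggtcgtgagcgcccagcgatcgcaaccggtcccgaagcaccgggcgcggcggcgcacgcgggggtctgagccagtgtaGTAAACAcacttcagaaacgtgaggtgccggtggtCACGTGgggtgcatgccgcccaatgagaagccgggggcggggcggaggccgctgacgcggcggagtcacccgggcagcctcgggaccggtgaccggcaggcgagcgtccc
In the Hspb1 promoter (chr5:135887669-135887968, plus strand) they mark a pair of matches to the heat shock element GAANNTTC, at positions -117 and -97.
Hspb1: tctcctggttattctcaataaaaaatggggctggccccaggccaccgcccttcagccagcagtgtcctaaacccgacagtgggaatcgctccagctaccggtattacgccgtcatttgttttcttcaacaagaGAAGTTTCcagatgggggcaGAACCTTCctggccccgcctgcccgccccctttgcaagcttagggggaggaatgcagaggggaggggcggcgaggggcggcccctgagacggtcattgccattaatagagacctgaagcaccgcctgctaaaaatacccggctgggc

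The insulin response element was found, on either strand, in 8 of the 40 promoters of genes lower in the dark (20%; 7 genes). It was found in 2 of the 29 promoters of genes higher in the dark (6.9%; Thrsp and Id3) and in 4.39% of the promoters of all tested genes. This motif and the FoxO element were chosen after the values of these genes had been seen, and the shares were not tested. Apart from Igfbp1, the genes lower in the dark with a match were Irs2, Ip6k2, an inositol phosphate kinase, Dyrk1b, a protein kinase, Fbxl20, an F-box protein, Serpina7, thyroxine-binding globulin, and Crebrf, a regulator of the stress factor CREB3. The stretches of 30 bases around these matches, on the strand of each gene, show that all but that of Crebrf read as the reverse complement, TGTTTTG. They lie at chr8:11008948-11008977 (minus), chr9:108795777-108795806 (plus), chr7:28179233-28179262 (plus), chr11:98149589-98149618 (minus), chrX:139085323-139085352 (minus) and chr17:26715670-26715699 (plus) in the order given.
Irs2: gagtcacgtgtTGTTTTGctcttagttcag
Ip6k2: ttgtggctttgTGTTTTGcttgctgtgatg
Dyrk1b: gagtTGTTTTGtttttctattaaaagactc
Fbxl20: gggagtgttttTGTTTTGggttgaagttga
Serpina7: cacttggtcttTGTTTTGtgcatcagcttt
Crebrf: acccgtcaggaaggacataaaCAAAACAaa
In Irs2 an E-box lies just before the match, at position -44. The first base of the match lay at position -37 in Irs2, -206 in Ip6k2 and -246 in Dyrk1b, and after the start in Fbxl20 (base 10) and Crebrf (base 42). Serpina7 has a pair of starts that share 1 match, at position -105 from one and -122 from the other.

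The other motifs were near the background or, where their share lay above it, found in few promoters. The E-box was found in 5 of 29 promoters of the higher genes (17.2%), 6 of 40 of the lower genes (15%) and 10.1% of all. The heat shock element was found in 6.9%, 2.5% and 5.79% in the same order, with Hspb1 and Bag3, a cochaperone, as the higher genes. The cAMP response element TGACGTCA (none, 5% and 2.86%), the D-box TTATGTAA (3.45%, none and 0.579%), the sterol element TCACNCCAC (none, 7.5% and 1.17%), the FoxO element (3.45%, 2.5% and 2.75%) and the serum response element (none, 2.5% and 1.3%) had at most 3 matching promoters in a group. The 3 promoters with the sterol element belong to 2 genes, Fbxl20 and Slc23a2, and a pair of Slc23a2 starts shares 1 match. The serum response element was in the promoter of Zfp36, an immediate early gene that lay lower in the dark. A match is a run of letters and not a bound site.

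Among the clock genes, Nr1d1 and Cry1 had groups that did not overlap. Nr1d1, which encodes the repressor REV-ERB alpha, had the largest difference of all tested probe sets at -2.81 ± 0.60 (SE, n = 3 dark and 4 light pools; adjusted p = 0.403 in limma), or 7.03-fold. Its log2 signal was 9.55, 7.21 and 7.51 at ZT14, ZT18 and ZT22, against 10.52, 11.60, 11.18 and 10.33 at ZT02, ZT06, ZT10 and ZT26. Cry1 had 8.08, 8.92 and 8.91 in the dark arrays, against 7.82, 6.56, 7.25 and 7.91 in the light arrays, a difference of 1.25 ± 0.37 with a gap of 0.17. Cry1 was thus lowest at ZT06, where Nr1d1 was highest.

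The other clock genes crossed between the phases. All 7 measured repressors of the core clock (Per1, Per2, Per3, Cry1, Cry2, Ciart and Bhlhe40) had the higher mean in the dark, with a median difference of 0.77, but ZT10 and ZT14 were both high. Per2 had 10.02, 9.79 and 8.46 in the dark arrays, against 7.08, 7.50, 9.21 and 7.29 in the light arrays, so that its ZT10 array lay above its ZT22 array. Ciart, whose second probe set differed by 0.63 against 1.31, had its highest array in the light, with 9.61, 7.67 and 6.81 in the dark against 5.09, 6.68, 9.77 and 5.35 in the light. With ZT06 and ZT10 as the only light arrays, Per1 (-0.17), Per3 (-0.59), Cry2 (-0.061) and Ciart (-0.20) had the lower mean in the dark, while Per2, Cry1 and Bhlhe40 did not.

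The activators Arntl and Clock differed little beside their spread, at 0.34 ± 0.99 and 0.13 ± 0.33. Arntl had 6.66, 8.48 and 8.81 at ZT14, ZT18 and ZT22, against 8.96, 7.37, 5.29 and 8.94 at ZT02, ZT06, ZT10 and ZT26, and its difference was -0.44 without ZT10. Nr1d2, the gene for REV-ERB beta, differed by -0.95 ± 0.64, with ZT14 at 9.66 above ZT02 at 8.80 and ZT26 at 8.75. Nfil3 (0.063 ± 0.57), a repressor of the D-box, and Rora (-0.094 ± 0.10), an activator that shares its sites with REV-ERB, lay near 0 beside their errors. Dbp, the output factor with the widest range, spanned 7.24 to 9.92 in the dark and 6.80 to 11.08 in the light, with a difference of -0.24 ± 1.16. Its relatives Tef (0.34 ± 0.61) and Hlf (0.49 ± 0.30) overlapped as well.

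**Figure D3:**
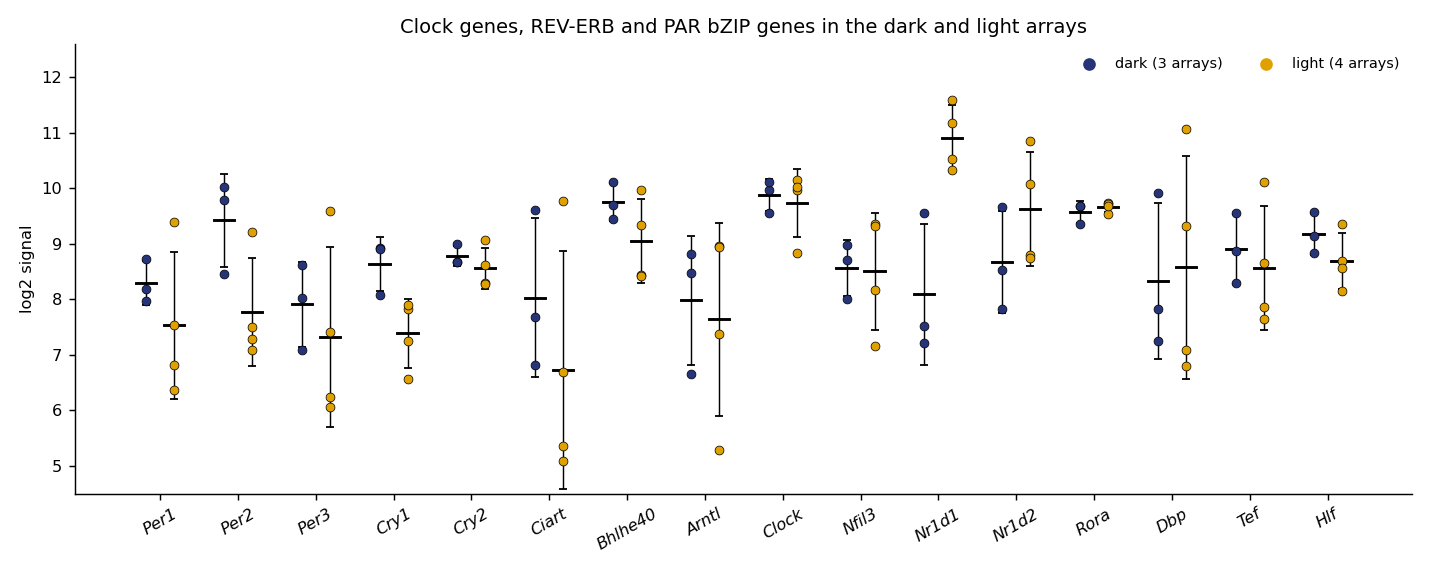
Log2 signal of 16 clock and clock output genes, with the 3 dark arrays (blue, left of each pair) beside the 4 light arrays (yellow, right). Points are single arrays, bars the group means and whiskers 1 SD; only for Nr1d1 and Cry1 do the groups not overlap, and Dbp spans 6.80 to 11.08 within the light.

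The pathway lists are described by the number of genes whose groups did not overlap, beside 4.26% higher and 4.38% lower of all genes. Over all 10966 genes the median difference was 0.0023, and 50.9% had the higher mean in the dark. No gene of any list passed an adjusted p under 0.05 in limma.

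The heat shock chaperones had the highest median of the lists with at least 10 measured genes. All 14 measured genes had the higher mean in the dark, and the median difference was 0.47. In limma 9 of them had an unadjusted p under 0.05, beside 1264 of all 10966 genes. The same held for 9 of 23 genes of ribosome biogenesis and 5 of 20 of fatty acid and triglyceride synthesis. Of the 14 heat shock genes, 4 had groups that did not overlap (Hspb1, Hsp90aa1, Hspa4l and Fkbp4). Hsp90aa1, the inducible cytosolic HSP90, had 11.69, 11.90 and 11.21 in the dark arrays, against 11.11, 11.13, 10.12 and 11.12 in the light arrays, and its other 2 probe sets differed by 0.74 and 0.69. Hsph1, which exchanges nucleotides on HSP70, differed most after Hspb1 (0.96 ± 0.39), but its ZT22 array at 8.71 lay below its ZT02 and ZT26 arrays at 9.09 and 8.87. Averaged over the list, deviations from each gene's mean were 0.53, 0.40 and -0.078 at ZT14, ZT18 and ZT22, against -0.086, -0.22, -0.44 and -0.10 at ZT02, ZT06, ZT10 and ZT26. The ZT22 array lay only just above the highest light array. The stress-inducible Hspa1a was high only at ZT14, with 7.98 against 6.31 to 6.70 on the other arrays. Bag3, outside the list, had 9.52, 8.79 and 8.44 in the dark, against 8.36, 8.04, 8.21 and 8.33 in the light. Cirbp, a cold-inducible RNA-binding protein, was on the other side at -0.59 ± 0.17, with 7.52, 7.54 and 8.18 in the dark against 8.18, 8.38, 8.40 and 8.41 in the light, but its relative Rbm3 differed by 0.16 ± 0.19.

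The chaperones of the endoplasmic reticulum, another arm of protein folding, had no gene whose groups did not overlap. Of 20 genes 17 had the higher mean in the dark, with a median of 0.073. Creld2, a stress-induced luminal protein, had 11.34, 11.32 and 9.64 in the dark arrays, against 10.76, 10.24, 9.06 and 10.66 in the light arrays. Syvn1, a ubiquitin ligase of that compartment, differed by 0.35 ± 0.29. For both genes ZT22 was low and ZT10 the lowest of all arrays.

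Ribosome biogenesis had 5 of 23 genes whose groups did not overlap. This was the most of the lists by count but not by share, as the heat shock chaperones had 4 of 14. Of 23 genes of ribosome biogenesis 20 had the higher mean in the dark, with a median of 0.18. The 5 were Nolc1, Nop2, Rrp12, Nop58 and Mybbp1a, all higher in the dark. Nolc1, a nucleolar phosphoprotein, had 8.80, 8.52 and 8.42 in the dark arrays, against 7.98, 7.64, 8.18 and 8.07 in the light arrays. Nop2, an RNA methyltransferase of the nucleolus, had 9.11, 8.70 and 8.36 against 8.04, 8.16, 8.35 and 8.30, so that the groups were only 0.0011 apart, and it differed by 0.31 without ZT14, against 0.51 with all arrays. Both were highest at ZT14. The cytosolic ribosomal proteins themselves had a median of 0.019 over 16 genes, with 0.10 ± 0.047 for Rpl8 as the largest difference. The initiation and elongation factors had a median of 0.035 over 11 genes, with Eif4e, the cap-binding protein, at 0.26 ± 0.082 and Eif2b5 at 0.10 ± 0.047 as the 2 whose groups did not overlap. The other 2 probe sets of Eif4e differed by 0.11 and 0.047 with overlapping groups, and the mean of its probe sets by 0.14.

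Fatty acid and triglyceride synthesis leaned to the dark. Of 20 genes 17 had the higher mean there, with a median of 0.29, and Thrsp and Mid1ip1, whose proteins act together on acetyl-CoA carboxylase, were the 2 whose groups did not overlap. Mid1ip1 had 10.02, 9.59 and 9.35 in the dark arrays, against 8.94, 8.77, 9.21 and 9.04 in the light arrays. Fasn, fatty acid synthase, had 12.32, 12.74 and 11.83 in the dark, against 11.82, 11.38, 11.76 and 11.86 in the light, so that its ZT22 array lay within the light arrays. Elovl6, an elongase of fatty acids, was likewise high at ZT14 and ZT18 (11.72 and 11.81) and at 10.73 at ZT22, against 10.51 to 11.12 in the light. Srebf1, the gene for the lipogenic factor SREBP-1, differed by 0.42 ± 0.18, while Scd1 (-0.0017 ± 0.037) and Mlxipl, the gene for the carbohydrate-responsive factor ChREBP (0.0069 ± 0.098), lay at 0 within their errors.

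Cholesterol synthesis and uptake behaved otherwise. None of 21 genes had groups that did not overlap, and the median was -0.10. The mean deviation of the list was -0.43, 0.15 and 0.14 at ZT14, ZT18 and ZT22, against 0.18, -0.073, -0.19 and 0.24 at ZT02, ZT06, ZT10 and ZT26. The ZT14 array was the lowest of the 7 and the other 2 dark arrays lay inside the light range. Hmgcs1, which makes the precursor of mevalonate, had 10.02, 11.45 and 11.60 in the dark, against 11.88, 11.45, 10.98 and 11.96 in the light. Without ZT14 its difference of -0.54 was -0.042. Mvk, mevalonate kinase, differed by -0.35 ± 0.17, was also lowest at ZT14, and differed by -0.155 without it.

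The genes of carbohydrate handling lay on both sides. Of 10 glycogen genes 5 had the higher mean in the dark. The groups did not overlap for Ppp1r3b, higher in the dark, and for Phka2, a subunit of phosphorylase kinase, lower at -0.37 ± 0.10. Ppp1r3g, a glycogen-targeting relative of Ppp1r3b, lay on the other side from Ppp1r3b at -0.79 ± 0.39 with overlapping groups. It had 6.98, 6.64 and 6.81 in the dark, against 7.70, 7.32, 8.61 and 6.80 in the light. The 10 genes of glucose uptake and glycolysis had a median of 0.061, led by the genes of regulatory phosphofructokinases Pfkfb3 (0.41 ± 0.54) and Pfkfb2 (0.25 ± 0.21). Only Pfkl, the liver phosphofructokinase, had groups that did not overlap (0.17 ± 0.085). Pfkfb3 had its highest array, 8.56, at ZT10, and its difference was -0.25 with ZT06 and ZT10 as the only light arrays. The 11 genes of gluconeogenesis had a median of -0.023, and only Creb1 had groups that did not overlap (0.15 ± 0.062). Of these Pck1 had 12.43, 11.79 and 12.53 in the dark, against 12.72, 12.86, 13.15 and 12.12 in the light, and the glucose 6-phosphate transporter gene Slc37a4 differed by 0.48 ± 0.24.

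Besides Igfbp1 and Irs2, no other gene of the 14 on insulin signalling and FoxO had groups that did not overlap, and the median was 0.0017. Pik3r1, a regulatory subunit of PI3 kinase, differed by 0.53 ± 0.16, with 10.90, 10.80 and 10.45 in the dark against 10.01, 10.17, 10.55 and 10.02 in the light. The receptor gene Insr differed by -0.19 ± 0.081 and Foxo1 by 0.091 ± 0.15. Fbxo32, a ubiquitin ligase gene that FoxO factors activate in muscle and that was outside the list, had no dark array above 6.64 and no light array below 7.05.

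The fasting regulators fell on both sides. G0s2 (0.75 ± 0.22) and Plin5, a lipid droplet protein (0.55 ± 0.11), were higher in the dark with groups that did not overlap, and Lpin2, a phosphatidate phosphatase, was lower (-0.51 ± 0.25). Angptl4, an inhibitor of lipoprotein lipase, had 9.36, 9.01 and 9.12 in the dark, against 9.28, 10.20, 10.35 and 9.42 in the light. In fatty acid oxidation and ketogenesis 10 of 14 genes had the lower mean in the dark, with a median of -0.017, and Etfdh, which passes electrons from fat oxidation to ubiquinone, was the one whose groups did not overlap (-0.21 ± 0.056). Bdh1, of ketone body synthesis, differed by -0.30 ± 0.11 with overlapping groups.

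**Figure D4:**
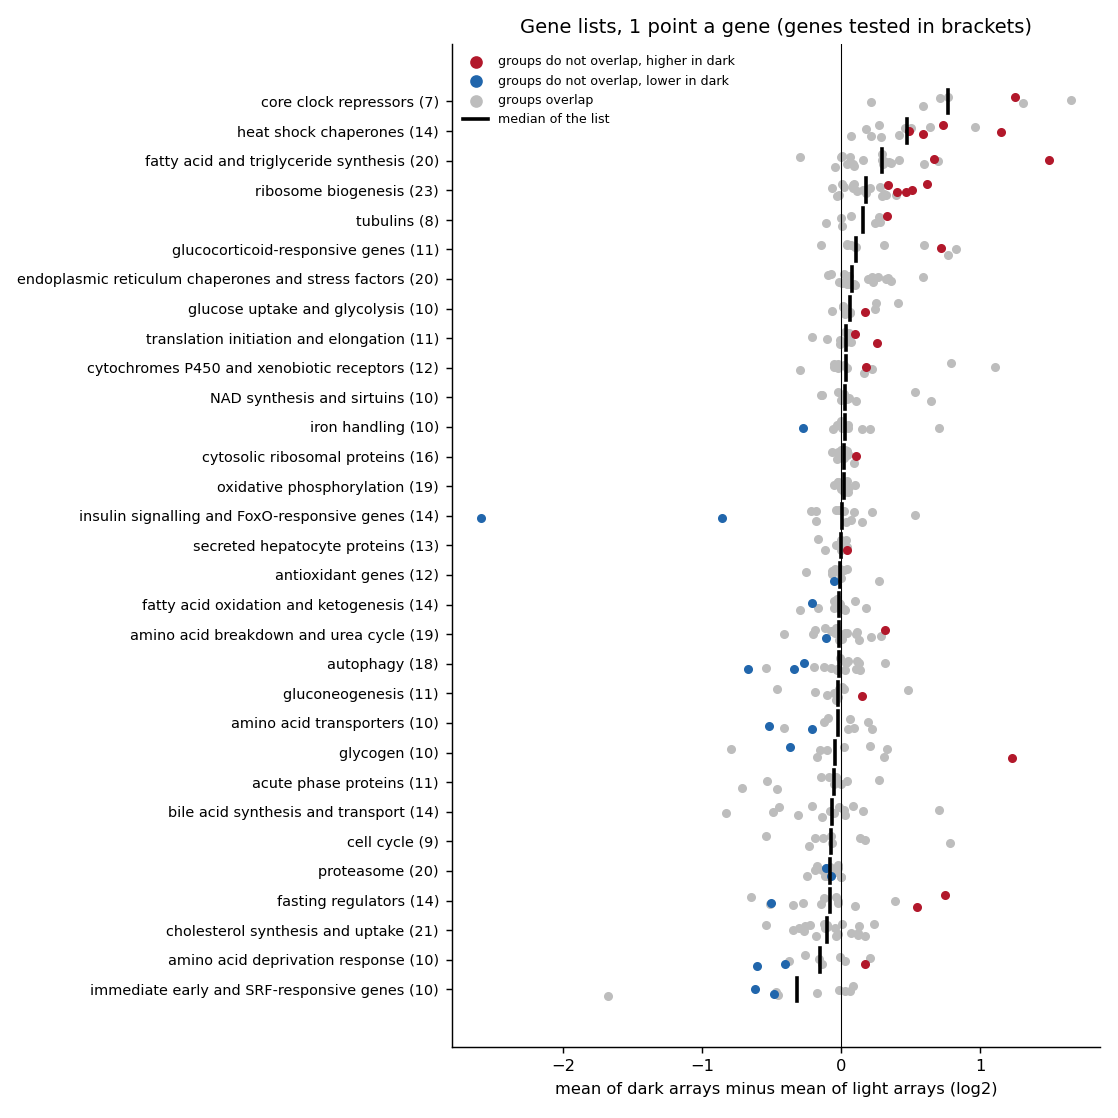
Difference between the dark and light means (log2) for each gene of the pathway lists with at least 5 measured genes, sorted by the list median (black bar). Red and blue points are genes whose groups did not overlap, higher or lower in the dark, and grey points genes whose groups overlapped; the 14 heat shock genes all lie above 0 and the 20 proteasome genes all below it.

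Protein breakdown was covered by the proteasome and autophagy lists. All 20 proteasome genes had the lower mean in the dark, from -0.25 to -0.0027 with a median of -0.079, but the groups did not overlap in 2 of them only (Psma2 and Psma4). Psma5 differed most, at -0.25 ± 0.11 with overlapping groups, while its second probe set, at -0.16 ± 0.056, did not overlap. In autophagy 3 of 18 genes had groups that did not overlap, all lower (Gabarapl1, Atg14 and Wipi1), while 8 had the higher mean in the dark and the median was -0.021. Gabarapl1, of the ATG8 family that coats autophagosomes, had 11.59, 11.10 and 11.68 in the dark, against 12.05, 12.29, 12.26 and 11.93 in the light. Ulk1, the kinase that starts autophagy, had 9.37, 8.76 and 9.38 against 9.29, 10.08, 10.15 and 9.31, so that the dark arrays lay below ZT06 and ZT10 and around ZT02 and ZT26.

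Genes of amino acid supply and of its stress response lay on both sides, and in the list of the response to amino acid shortage 2 of 10 genes lay lower and 1 higher without overlap. Chac1, which degrades glutathione, had 7.37, 7.16 and 7.47 in the dark, against 7.88, 7.97, 8.14 and 7.77 in the light. Trib3, a pseudokinase induced by amino acid shortage, differed by -0.40 ± 0.12 with groups that did not overlap. Slc3a2, a subunit of amino acid exchangers, lay on the other side at 0.17 ± 0.063 without overlap, and Ddit3, a stress factor, differed by 0.21 ± 0.072 with overlapping groups. Atf4, the factor that activates Chac1 and Trib3, differed by -0.0076 ± 0.071. Slc38a2, a transporter of small neutral amino acids, had 10.84, 10.99 and 10.98 in the dark, against 11.22, 11.63, 11.90 and 11.06 in the light. Of 19 genes of amino acid breakdown and the urea cycle, Asl, argininosuccinate lyase, differed by 0.32 ± 0.086 with groups that did not overlap, and Bckdha, of branched-chain amino acid breakdown, by -0.11 ± 0.068 likewise, while Cbs, of the transsulfuration pathway, differed by -0.42 ± 0.19 with overlapping groups, and by -0.24 without ZT14.

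The immediate early and SRF-responsive genes had a median of -0.32 over 10 genes, the lowest of the lists with at least 5 measured genes. Egr1 had 6.23, 7.02 and 7.90 in the dark, against 9.32, 8.34, 7.85 and 9.40 in the light, so that ZT22 lay just above ZT10. Zfp36, which destabilises mRNAs, had 8.94, 9.08 and 8.86 in the dark, against 9.86, 9.36, 9.47 and 9.63 in the light, and Junb differed by -0.49 ± 0.13. These 3, with Jun (-0.47 ± 0.18) and Klf10 (-0.46 ± 0.41), carried the list, while Actb, Srf and Vcl lay within 0.07 of 0. Of the 4 genes of the list under the minimum of 85 units, Fos was one.

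The remaining lists held single genes with wide differences. Cyp2b10, a cytochrome P450 whose probes may also capture its near relative Cyp2b9, differed by 1.1 ± 0.38 with ZT14 at 9.01 and ZT26 at 9.05. Alas1, the first enzyme of heme synthesis, had 12.82, 12.06 and 11.51 in the dark, against 10.69, 11.20, 12.79 and 10.69 in the light. Cyp7a1, which sets the pace of bile acid synthesis, had 12.52, 12.37 and 11.69 against 11.26, 11.34, 12.10 and 11.27, and Abcg8, a sterol exporter, 10.17, 8.85 and 9.90 against 10.17, 10.54, 11.08 and 10.10. For Alas1 and Cyp7a1, as for Thrsp, the ZT10 array was the highest of the light arrays. Among the glucocorticoid-responsive genes 10 of 11 had the higher mean in the dark, and Tsc22d3 was the one whose groups did not overlap, with 9.80, 9.83 and 9.54 against 9.14, 8.92, 9.17 and 8.79. Fkbp5, of the same class, had 9.62 at ZT14, 8.37 at ZT18 and 7.74 at ZT22, against 7.28 to 8.50 in the light.

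The lists of NAD synthesis, iron handling, tubulins and the cell cycle had 2 genes whose groups did not overlap, Ireb2 and Tubg1. Nampt, which makes NAD from nicotinamide, differed by 0.64 ± 0.38 and Nmrk1 by 0.53 ± 0.40, with ZT10 the highest light array of both. Wee1, a kinase that holds mitosis, had 9.40, 8.91 and 7.45 in the dark, against 7.02, 7.16, 9.79 and 7.25 in the light, and Btg2 differed by -0.54 ± 0.29. Tfrc, the transferrin receptor, differed by 0.70 ± 0.23 with overlapping groups, and Ireb2, which controls it, by -0.28 ± 0.076 with groups that did not overlap. Tubg1 of the centrosome was the one tubulin gene whose groups did not overlap (0.33 ± 0.092), and Tubb6 differed by 0.28 ± 0.13. Of the antioxidant genes Hmox1 (0.27 ± 0.13) and Gclc (-0.25 ± 0.14, and -0.10 without ZT14) overlapped, and Cat, catalase, did not (-0.050 ± 0.037).

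The lists of oxidative phosphorylation, secreted proteins and acute phase proteins are given last. Oxidative phosphorylation had a median of 0.016 over 19 genes, with 0.10 ± 0.051 for Cox5a as the largest and 0.053 ± 0.038 for Cox7a2. The secreted proteins had a median of -0.0041 over 13 genes, with the fibrinogen genes Fga (-0.17 ± 0.16) and Fgb (-0.12 ± 0.056) at the lower end and Rbp4 (0.043 ± 0.038) as the one whose groups did not overlap. The acute phase proteins had a median of -0.056 over 11 genes, of which 9 had the lower mean in the dark. Among these, Saa2 (-0.71 ± 0.68) and Saa1 (-0.53 ± 0.77) are near-identical copies whose probes may be shared. They spanned 7.42 to 10.46 and 4.52 to 7.88 within the light arrays. Saa1 passed the minimum signal only narrowly, with a mean of 88.8 units. Its dark arrays (5.56, 5.55 and 6.21) and its ZT10 and ZT26 arrays (4.52 and 5.64) lay below that minimum. Whether so low a signal can show a difference was not tested. Saa4 lay on the other side at 0.27 ± 0.084 with overlapping groups.

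Markers of other liver cells were set beside these results. In whole tissue, fewer cells of a type and less RNA per cell cannot be told apart. None of the 11 measured Kupffer cell markers had groups that did not overlap, and their median difference was 0.0014. Their mean deviation was -0.26, -0.019 and 0.25 at ZT14, ZT18 and ZT22, against 0.088, -0.029, -0.32 and 0.28 at ZT02, ZT06, ZT10 and ZT26. Clec4f, a lectin particular to Kupffer cells, had 9.42, 9.76 and 9.91 in the dark arrays, which all lay inside the range of the light arrays, lowest at ZT10 with 9.33 and highest at ZT26. All 5 genes of MHC class II presentation had the higher mean in the dark with a median of 0.12, with Cd74, the invariant chain, at 0.12 ± 0.35 and 9.08, 9.55 and 10.08 in the dark against 9.82, 8.93, 9.01 and 10.05 in the light. All 8 endothelial markers had the higher mean as well (median 0.074), but none had groups that did not overlap. Neutrophil markers were all at or below 85 units (0 of 8 tested), and 3 of the 13 listed lymphocyte markers passed it. The part of these cells in the differences of the other genes was not tested.

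Most of the leading differences were larger across lights off, when food was given, than across lights on, when it was removed. The signs of these steps follow from the choice of the 77 probe sets, and their sizes are given as a description. The share of all tested probe sets with the larger step at lights off was not computed. ZT10 and ZT14 had the lowest mean correlations with the other arrays (0.982 and 0.983, against 0.987 to 0.990). A larger step between these arrays may therefore not be particular to the 77 probe sets. Among the 37 higher probe sets, the median step from ZT10 to ZT14 was 0.89 and that from ZT22 to ZT26 was -0.35, and in 30 of them the first was the larger in size. Among the 40 lower probe sets the median steps were -0.98 and 0.43, and in 36 the first was the larger. Angptl8 had the largest upward step at lights off (2.05, and -0.61 at lights on) and Depp1 the largest downward one (-2.50, and 1.44 at lights on). Exceptions were Nr1d1 with -1.62 at lights off and 2.81 at lights on, Igfbp1 (-2.25 and 2.52), Thrsp (0.95 and -1.26) and Cry1 (0.83 and -1.0).

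**Figure D5:**
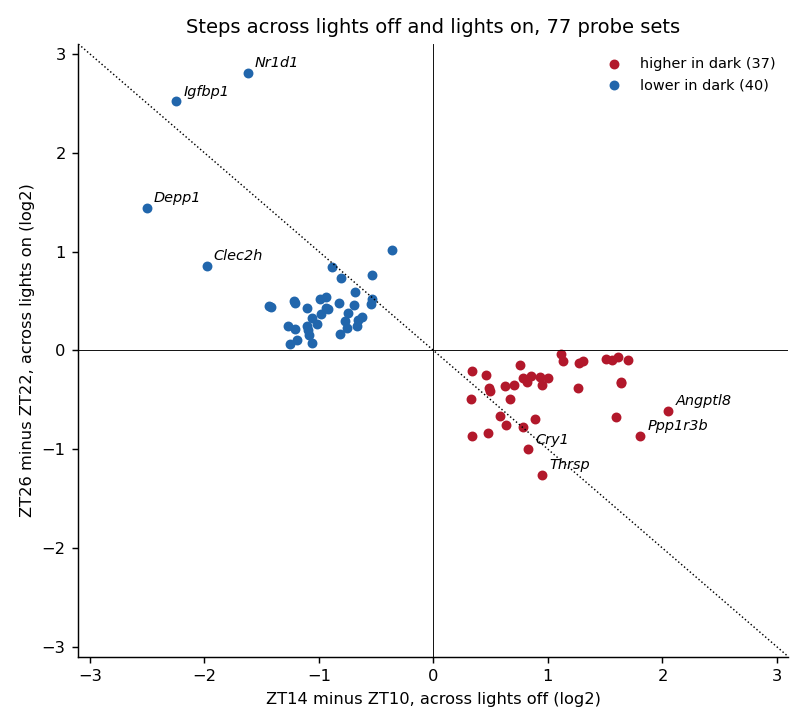
For the 77 probe sets whose groups did not overlap and lay over 1.5-fold apart, the difference between ZT14 and ZT10 (log2, horizontal) is set against that between ZT26 and ZT22 (log2, vertical). Points on the dotted diagonal have steps of the same size and opposite sign. Of the red points 30 of 37, and of the blue points 36 of 40, have the larger step at lights off. Nr1d1 and Igfbp1 lie on the other side. The share over all tested probe sets was not computed.

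The extremes within each phase are given as a description, because the choice of the 77 probe sets fixes the phase in which each extreme falls. The share of all tested probe sets with their extreme at each array was not computed. As ZT10 and ZT14 had the lowest mean correlations with the other arrays, extremes there may not be particular to the 77 probe sets. The 37 higher probe sets had their highest array at ZT14 (20) or ZT18 (17) and none at ZT22, and their lowest at ZT10 (15), ZT06 (14), ZT02 (5) or ZT26 (3). The 40 lower probe sets had their lowest array at ZT14 (21), ZT18 (18) or ZT22 (1), and their highest at ZT06 (16), ZT10 (11), ZT26 (7) or ZT02 (6). Nr4a1 and Igfbp1, with their highest arrays at ZT02, and Depp1, with its highest at ZT26, belonged to those highest early in the light.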

How the data were processed

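The deposited values are log2 signals that the authors obtained by RMA; the submitters' processing notes name Affymetrix Expression Console, version 1.1.2637.26569. RMA removes background, puts the arrays on a shared distribution and summarises the probes of a probe set. Arrays carry no read depth, and their number limits the precision. Gene names came from GEO's platform annotation (21789 probe sets with 1 symbol, 1621 with several, 12146 unnamed); 21698 of the 21789 matched RefSeq by gene ID and no symbol had to be updated. Coordinates and sequences are from RefSeq, GRCm38.p6.

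Probe sets with 1 symbol and a mean above 85 units (2 to the power of the log2 value) were fitted by lmFit and eBayes of limma 3.58.1 (R 4.3.3; group means of 3 dark and 4 light arrays, 5 residual degrees of freedom), with Benjamini-Hochberg adjustment over 12076 probe sets. The spread within a group therefore holds both time of day and differences between pools. Every error after ± is the moderated SE of eBayes (1.99 prior degrees of freedom). It draws the variance of each probe set towards a value shared by all. Where the arrays of a group differ little, it can exceed the error from their own spread. The scripts were checked on simulated data. A gene was represented by its tested probe set with the highest mean.

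The groups, the gene lists and the rules were chosen with earlier results of these data known. Genes were named by 4 rules: the 12 largest differences in each direction among probe sets past the threshold or, failing those, among non-overlapping ones, leaving out clone names; up to 3 called or else the 2 largest of each list; all clock genes; and the markers Alb, Clec4f and Cd74. Other genes in the text were chosen after their values were seen. Alternatives left out each array, averaged ZT02 and ZT26, kept only ZT06 and ZT10 as light arrays, changed the minimum (43, 170 or none), centred or quantile normalized the arrays, changed the moderation, or averaged the probe sets of a gene.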

Additional observations from a re-analysis of the deposited data

Results flagged for a closer look

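Among the 97 genes chosen by rule, 10 had 1 light array that stood apart from the other 3 by Dixon's test for 4 values, while groups of 3 dark arrays are too small for it. Chance flags about 1 in 20 groups of 4 interchangeable values. The light arrays are not interchangeable, because ZT02 and ZT26 share a clock hour. In a gene that changes with time of day, another hour can stand apart from these by design. That rate therefore does not hold here, and the flags are a description only. In 9 of the 10 genes that array was ZT10, the last before food was given. It was the highest light array for Thrsp (11.45, others 10.24 to 10.40), Pfkfb2 (8.98, others 8.46 to 8.51), Cyp7a1 (12.10, others 11.26 to 11.34), Nampt (10.50, others 9.24 to 9.39), Nmrk1 (9.92, others 8.39 to 8.64) and Wee1 (9.79, others 7.02 to 7.25). It was the lowest for Angptl8 (9.64, others 10.27 to 10.32), Erbb3 (10.89, others 11.05 to 11.08) and Clock (8.83, others 9.96 to 10.14). For Cirbp it was ZT02 (8.18, others 8.38 to 8.41). ZT10 had the lowest mean correlation with the other arrays, 0.982, against 0.983 to 0.990 for the rest. Whether these values follow the hour or the pool was not tested, since ZT10 has 1 array.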

How the results depend on the processing

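No probe set had an adjusted p under 0.05 in any alternative except without ZT22, where leaving out 1 array in turn gave 0 to 1 (Tcp11l2). The count of non-overlapping probe sets past 1.5-fold, 77 with all arrays, was 67 to 175 with 1 array left out and 197 with ZT06 and ZT10 as the only light arrays; fewer arrays overlap less by construction. It was 69 to 97 in the other alternatives. The share of these higher in the dark, 48.1%, was 58.8% without ZT10 and 40.2% to 50.9% without another array; a share of calls past the adjusted p could not be computed. At an unadjusted p under 0.05 the count was 683 to 1651 with 1 array left out.

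Of 97 named genes, 82 kept their sign in every alternative. Leaving out 1 array moved the difference over 1.5 times without a turn of sign for 37 of them, each under some choice of array, most often without ZT14 (26 genes) or ZT10 (22). With 1 array left out the range crossed 0 for Arntl (-0.438 to 1.01), Clock (-0.172 to 0.292), Nfil3 (-0.383 to 0.349), Dbp (-1.04 to 0.592), Rora (-0.151 to 0.0178), Alb (-0.0107 to 0.022), Cd74 (-0.136 to 0.364) and Clec4f (-0.138 to 0.128). With ZT06 and ZT10 as the only light arrays the sign turned for Ciart (-0.196), Tef (-0.474), Pfkfb3 (-0.251), Rbm3 (-0.0795), Per1 (-0.166), Per3 (-0.589), Cry2 (-0.0609) and Clec4f (0.176). It turned for Clec4f with ZT02 and ZT26 averaged (0.0513) and for Alb with quantile normalization (-0.0113). The cause was not tested. The median of the heat shock genes was 0.36 to 0.649 over the alternatives, that of ribosome biogenesis 0.0739 to 0.302, that of fatty acid synthesis 0.126 to 0.292 and that of cholesterol synthesis -0.189 to 0.0533. No paired analysis was possible because each time is a single pool and the labels give no number that ties a dark to a light array. With 1 pool a time, differences within the spread between pools were not detectable.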
